A study of Mus musculus with 12 samples.

Results

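The genes of MHC class I antigen presentation were followed through mouse bone marrow mesenchymal stem cells (MSCs) that were induced with TGF-β1 in the presence or absence of culture supernatant from myeloid-derived suppressor cells (MDSCs). The group was fixed by gene name and holds 10 of the 55401 genes in the table: the heavy chains H2-K1, H2-D1 and H2-T23, their light chain B2m, the peptide transporter and its partner Tap1, Tap2 and Tapbp, and the immunoproteasome subunits Psmb8, Psmb9 and Psmb10. All 10 were found. Messenger RNA of 12 libraries was sequenced, 3 in each of 4 groups. Control MSCs had no treatment, the TGF-β1 group received TGF-β1 at 5 ng/mL, and the other groups received the same TGF-β1 together with supernatant of granulocytic MDSCs (TGF-β1 with G-MDSC sup) or of monocytic MDSCs (TGF-β1 with M-MDSC sup). The MSCs came from C57BL/6 mice through a commercial supplier, and the MDSCs were raised from C57BL/6 bone marrow with GM-CSF and IL-6 and then sorted. No group received supernatant without TGF-β1, so each effect of a supernatant was measured on TGF-β1-treated cells only. The labels do not say that the libraries of a group came from separate cultures, so p-values measure the spread between these libraries, which may be technical.

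Class I molecules show short peptides from the inside of the cell to CD8+ T cells. Peptides are cut by the proteasome, whose catalytic subunits can be exchanged for the immunoproteasome subunits, and are carried into the endoplasmic reticulum by the TAP transporter. There, tapasin holds the transporter next to a heavy chain that is bound to B2m, and the loaded complex travels to the cell surface. Interferons are the classical inducers of the whole set, through factors of the IRF family and the class I transactivator NLRC5. MSCs are known to carry class I at a low to moderate level and to raise it under interferon.

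Of the 10 genes, 8 lie on chromosome 17 in GRCm38, in and around the H2 complex. H2-K1 was placed at chr17:33996017-34000347 on the minus strand, H2-D1 at chr17:35262730-35267499 on the plus strand and H2-T23 at chr17:36029773-36032855 on the minus strand. Psmb9, Tap1, Psmb8 and Tap2 follow each other from chr17:34181987 to chr17:34216321, and Tapbp lies at chr17:33915899-33926197. B2m is on chromosome 2 and Psmb10 on chromosome 8. Psmb9 and Tap1 are read away from each other and their gene models overlap by 212 bases. Exact runs of 150 bases shared with another gene were found in 1.54% of the runs in the transcripts of H2-D1, all with H2-Q1, and in 0.83% of those of H2-T23. None was found in the other 8 genes. Copies with a mismatch were not searched.

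The upstream sequences of the heavy chains and of B2m are shown because most of the members moved together and because these elements are the textbook contacts of interferon and NF-κB signalling on class I genes. They were read from RefSeq promoter sequences of GRCm38.p6, which hold 250 bases before and 50 bases after each start and were matched for 9 of the 10 genes. In the lines below, capitals mark the 11-base palindrome GGGGATTCCCC and the GAANNGAAA element on the opposite strand in H2-K1 and H2-D1, and the elements GAAANNGAAA and GGGACTTTCC, the latter on the opposite strand, in B2m.
H2-K1, chr17:34000429-34000458, minus strand: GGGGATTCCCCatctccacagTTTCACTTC
H2-D1, chr17:35262923-35262952, plus strand: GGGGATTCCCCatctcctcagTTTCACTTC
B2m, chr2:122147548-122147570, plus strand: GAAACTGAAAatgGGAAAGTCCC
The H2-K1 and H2-D1 stretches are 30 bases long and differ by the substitution A18T, counted from the 5′ end with H2-K1 as the reference. The H2-D1 stretch also lies within an exon of the annotated transcript H2-D1-202, whereas the others lie outside annotated exons. A longer upstream stretch of H2-K1 and of B2m shows how close these elements stand to a TGACG element and to a CCAAT box, which reads ATTGG on this strand, all in capitals.
H2-K1, chr17:34000348-34000477, minus strand: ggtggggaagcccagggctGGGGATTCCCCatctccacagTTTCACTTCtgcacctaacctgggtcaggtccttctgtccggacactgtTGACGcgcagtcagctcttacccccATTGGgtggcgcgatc
B2m, chr2:122147517-122147685, plus strand: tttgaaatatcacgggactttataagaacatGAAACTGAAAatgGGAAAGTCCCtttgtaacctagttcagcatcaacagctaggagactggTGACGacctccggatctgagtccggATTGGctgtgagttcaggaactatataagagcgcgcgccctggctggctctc

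Both strands of all 32851 promoter windows of this length were searched for the same letters. The palindrome was read from the H2-K1 window, and GGGACTTTCC and GAAANNGAAA from the B2m window. These genes were thus certain to match, and for these elements the share over all windows gives no test. The palindrome GGGGATTCCCC stood in 10 windows, or 0.0304%, among them those of H2-K1 and H2-D1. GGGACTTTCC stood in 0.155% of windows and in that of B2m. GAAANNGAAA was held by 3.44% of windows and by those of B2m and H2-T23, and GAANNGAAA by 7.52% and by those of H2-K1 and H2-D1. The element TTCNNNGAA was held by 8.30% of windows and, among the members, by that of Psmb8. This match in Psmb8 and the GAAANNGAAA match in H2-T23 lie within exons of the annotated transcripts Psmb8-201 and H2-T23-201. CCAAT was held by 37.4% of windows and by 7 of the 9 member windows. TGACG was held by 20.8% and by 5 member windows. GGGCGG was held by 35.7% and by those of Tap1, Psmb9 and Tapbp. The windows of Tap1 and Psmb9 share bases, so their matches to these last 3 motifs are the same sites read from either side. None of the searched matches overlapped another in H2-K1, H2-D1 or B2m. A match is a description of letters, not of a bound site.

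The libraries held 73977669 to 84565450 counts. The 8 markers of mesenchymal stem cells fixed for the check, among them Cd44, Itgb1 and Ly6a, summed to between 848 and 931 FPKM in every library, but single markers moved in opposite directions. Ly6a had 245 ± 5.35 FPKM (SD, n = 3) in Control, 16.2 ± 2.92 with TGF-β1, 66.9 ± 3.196 with G-MDSC sup and 92.5 ± 10.1 with M-MDSC sup, so that it was lowest with TGF-β1, as were the members other than H2-K1. With TGF-β1 Pdgfra fell from 13.96 to 4.95 FPKM and Itgb1 rose from 254 to 385 FPKM. Kit reached at most 0.0117 FPKM and Pecam1 at most 0.218 FPKM. Ptprc, the pan-leukocyte gene Cd45, reached at most 0.0157 FPKM. All 6 libraries with supernatant also held transcripts of other organs. The 12 kidney tubule markers summed to 53.8 to 65.9 FPKM with G-MDSC sup and to 18.8 to 87.9 FPKM with M-MDSC sup, against at most 0.593 FPKM without supernatant. The 12 hepatocyte markers had 0 counts in the 6 libraries without supernatant, which allows up to 3 counts a library from counting error alone. They summed to 78.1, 78.5 and 84.3 FPKM with G-MDSC sup and to 70.3 FPKM in replicate 3 with M-MDSC sup, but only to 0.116 and 0.254 FPKM in replicates 1 and 2 with M-MDSC sup. The members summed to 843 and 908 FPKM in those replicates and to 914 FPKM in replicate 3, most of it B2m. The part of the liver and kidney transcripts in the members' levels was not tested. In bulk RNA, fewer cells of a type and less RNA per cell cannot be told apart.

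All 10 members were detected in all 12 libraries. B2m had by far the highest level per length (FPKM, fragments scaled by exon length and by mapped reads), at a mean of 408 FPKM in Control. H2-D1 and H2-K1 followed at 20.7 and 20.4 FPKM, and their ranges overlapped in every group. Tap2, Tapbp, Psmb10 and H2-T23 stood between 10.2 and 6.40 FPKM, Tap1 at 2.43 FPKM, Psmb8 at 0.924 FPKM and Psmb9 at 0.344 FPKM. In Control the neighbours Psmb10 and H2-T23 also overlapped. With either supernatant, H2-T23 stood above Psmb10 without overlap. Psmb9 stayed lowest and B2m highest in all 4 groups.

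**Figure D1:**
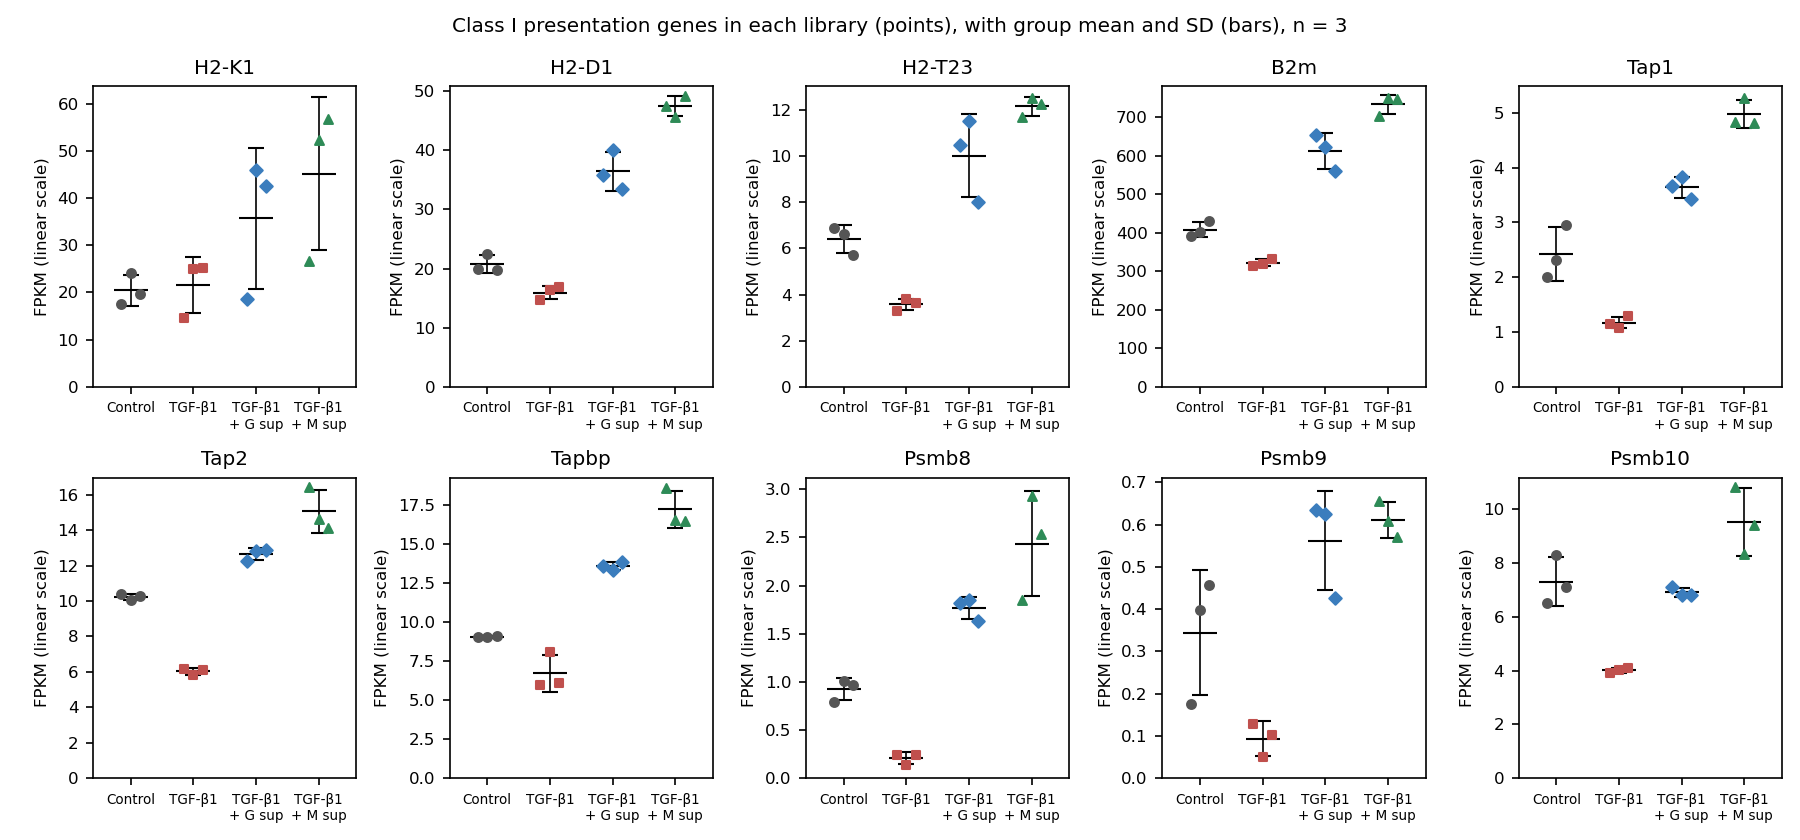
Level of each of the 10 genes in FPKM on a linear axis that starts at 0, by group. Points are libraries, and bars give the mean ± SD of 3 libraries. In all panels but that of H2-K1, every TGF-β1 library lies below every Control library and every library with supernatant.

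The heavy chains carry the peptide. H2-D1 encodes the classical H-2D chain and had 19.9, 22.5 and 19.8 FPKM in Control replicates 1 to 3. It had 14.7, 16.3 and 16.8 FPKM with TGF-β1, 35.8, 40.0 and 33.5 FPKM with G-MDSC sup and 47.5, 45.7 and 49.1 FPKM with M-MDSC sup. The 4 groups did not overlap, with TGF-β1 lowest and M-MDSC sup highest. H2-T23 encodes Qa-1, a non-classical chain that is a ligand of the inhibitory NKG2A receptor of NK cells. It had 6.87, 6.62 and 5.71 FPKM in Control, 3.29, 3.80 and 3.62 FPKM with TGF-β1, 10.5, 11.5 and 8.01 FPKM with G-MDSC sup and 11.7, 12.5 and 12.3 FPKM with M-MDSC sup. Again each group stood apart in the same order. The gene model of H2-T23 lies entirely within that of the antisense gene A930015D03Rik, and the strand setting of the counting is not given in the sources used here. A930015D03Rik held 41 to 498 counts against 856 to 3075 for H2-T23. Its level moved the other way, with a log2 fold change of 2.72 ± 0.49 (SE) from Control to TGF-β1 (adjusted p = 0.00136, edgeR's quasi-likelihood test).

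H2-K1, the classical H-2K chain, varied more between libraries of a group than the other heavy chains. It had 17.6, 24.03 and 19.6 FPKM in Control and 14.6, 24.9 and 25.2 FPKM with TGF-β1. It had 18.6, 46.0 and 42.5 FPKM with G-MDSC sup and 26.7, 52.2 and 56.7 FPKM with M-MDSC sup. Replicate 1 was the lowest of each group, and replicate 1 with G-MDSC sup stood within the Control range. B2m, the light chain that every class I heavy chain needs, was far tighter. It had 393, 402 and 430.3 FPKM in Control, 315, 320.2 and 332 FPKM with TGF-β1, 655, 622 and 561 FPKM with G-MDSC sup and 704, 749 and 748 FPKM with M-MDSC sup. No groups overlapped.

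The next members bring peptide to the heavy chain. Tap1, one chain of the TAP transporter, had 1.997, 2.32 and 2.96 FPKM in Control, 1.15, 1.08 and 1.28 FPKM with TGF-β1, 3.67, 3.82 and 3.43 FPKM with G-MDSC sup and 4.84, 5.28 and 4.81 FPKM with M-MDSC sup. Its partner chain Tap2 had 10.4, 10.04 and 10.3 FPKM in Control, 6.19, 5.80 and 6.11 FPKM with TGF-β1, 12.3, 12.8 and 12.9 FPKM with G-MDSC sup and 16.4, 14.6 and 14.1 FPKM with M-MDSC sup. Tapbp encodes tapasin and had 9.03, 9.03 and 9.11 FPKM in Control, 5.99, 8.10 and 6.09 FPKM with TGF-β1, 13.6, 13.3 and 13.9 FPKM with G-MDSC sup and 18.6, 16.6 and 16.5 FPKM with M-MDSC sup. All 3 genes showed 4 separate groups in the same order, and replicate 2 of the TGF-β1 group was high for Tapbp. Zbtb22, which shares 3422 bases of its gene model with Tapbp on the same strand, had between 2321 and 2948 counts in the 12 libraries and its log2 fold changes had an adjusted p of at least 0.143 in the 6 comparisons (edgeR).

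Of the immunoproteasome subunits, Psmb8 and Psmb9 had the lowest levels of all members, while Psmb10 stood above Tap1. Psmb8 encodes the chymotrypsin-like subunit LMP7 and had 0.796, 1.01 and 0.970 FPKM in Control, 0.241, 0.138 and 0.245 FPKM with TGF-β1, 1.82, 1.85 and 1.64 FPKM with G-MDSC sup and 1.85, 2.93 and 2.53 FPKM with M-MDSC sup. Psmb9 encodes LMP2 and had 0.177, 0.398 and 0.457 FPKM in Control, 0.130, 0.0494 and 0.102 FPKM with TGF-β1, 0.635, 0.625 and 0.426 FPKM with G-MDSC sup and 0.655, 0.608 and 0.571 FPKM with M-MDSC sup. TGF-β1 libraries were the lowest for both, and the supernatant groups overlapped for Psmb9 and met, both rounding to 1.85 FPKM, for Psmb8. Psmb10 encodes MECL-1 and had 6.49, 8.28 and 7.12 FPKM in Control, 3.90, 4.03 and 4.10 FPKM with TGF-β1, 7.10, 6.82 and 6.79 FPKM with G-MDSC sup and 10.8, 8.32 and 9.41 FPKM with M-MDSC sup. For Psmb10, G-MDSC sup and Control overlapped.

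Genes with at least 1 FPKM in at least 3 libraries were tested, 12016 in all. Psmb9 did not pass, having 17 to 222 counts and at most 0.655 FPKM. Psmb8 passed through the supernatant groups, since it reached 1 FPKM in 1 of 3 Control libraries and 0 of 3 TGF-β1 libraries but in all 6 with supernatant. Counts below therefore refer to the 9 tested members, and values for Psmb9 come from a fit without the filter.

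The first comparison asks what TGF-β1 alone did to class I presentation. Of the 9 tested members, 8 were lower with TGF-β1 than in Control and 0 were higher at an adjusted p under 0.05 (edgeR's quasi-likelihood F test, two-sided, Benjamini-Hochberg over all genes tested). Among all genes tested, 17.9% were lower and 16.1% were higher. The 8 also did not overlap between the groups, as was the case for 30.0% of all genes in that direction. Their median log2 fold change over the 9 was -0.70, against 0.00048 over all genes tested. Psmb8 fell by 2.06 ± 0.23 (SE) on the log2 scale, which is 4.17-fold lower (adjusted p = 4.82e-05, edgeR). Tap1 had a log2 fold change of -0.99 ± 0.13, Psmb10 of -0.81 ± 0.11, H2-T23 of -0.78 ± 0.12 and Tap2 of -0.70 ± 0.06. The smallest changes called were those of B2m, H2-D1 and Tapbp, at fold changes of 0.82, 0.80 and 0.77. Tapbp lost its call without replicate 1 (adjusted p = 0.0664, edgeR) or replicate 3 (0.0608) of the TGF-β1 group, and when only these groups were fitted (0.0700). H2-K1 had a log2 fold change of 0.14 with a 95% interval of -0.68 to 0.95. Without the filter, Psmb9 had a log2 fold change of -1.78 ± 0.40 (adjusted p = 0.00909, edgeR).

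The comparisons of each supernatant with TGF-β1 alone ask what adding the supernatant changed in TGF-β1-treated cells. No group received the MDSC culture medium without MDSCs, so effects of MDSC products and of that medium cannot be told apart. With M-MDSC sup, 8 of the 9 tested members were higher than with TGF-β1 alone and 0 were lower, where 2.83% of all genes tested were higher and 1.95% lower. With G-MDSC sup the counts were also 8 and 0, where 3.1% of all genes were higher and 2.46% lower. The median log2 fold change of the 9 was 1.33 with M-MDSC sup and 1.04 with G-MDSC sup, against -0.013 and -0.014 over all genes tested. Groups did not overlap for 9 members with M-MDSC sup and for 8 with G-MDSC sup, against 13.4% and 13.2% of all genes. By the study's own rule, a fold change over 2 with an unadjusted p under 0.05, 9 members were higher with M-MDSC sup (1.94% of all genes) and 5 with G-MDSC sup (1.9%), and 1 was lower with TGF-β1 than in Control by the matching rule of under 0.5 (4.14%). Both comparisons, and that of TGF-β1 with Control, share the TGF-β1 libraries.

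Psmb8 rose most, by 3.49 ± 0.24 (SE) on the log2 scale with M-MDSC sup, or 11.2-fold, and by 3.03 ± 0.24, or 8.14-fold, with G-MDSC sup. Tap1 rose 4.16-fold and 3.03-fold, H2-T23 3.35-fold and 2.75-fold, and H2-D1 2.93-fold and 2.24-fold, with M-MDSC sup given first. Tapbp rose 2.52-fold and 1.98-fold, Tap2 2.46-fold and 2.06-fold, Psmb10 2.33-fold and 1.69-fold, and B2m 2.24-fold and 1.87-fold. The adjusted p of these 8 genes was at most 5.33e-05 with M-MDSC sup and at most 0.00197 with G-MDSC sup (edgeR). Psmb9, fitted without the filter, had log2 fold changes of 2.65 ± 0.40 (adjusted p = 0.00438) and 2.53 ± 0.40 (adjusted p = 0.00528, edgeR).

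H2-K1 did not pass. Its log2 fold change was 1.04 ± 0.37 with M-MDSC sup (adjusted p = 0.173, edgeR; 95% interval 0.23 to 1.86) and 0.70 ± 0.37 with G-MDSC sup (adjusted p = 0.379; -0.11 to 1.51). With the replicate number as a block the values were 1.02 ± 0.18 (adjusted p = 0.0155) and 0.65 ± 0.18 (adjusted p = 0.0880, edgeR). There H2-K1 was called with M-MDSC sup. In replicates 2 and 3 alone the values were 1.10 and 0.80. These replicates were chosen after seeing the data, which left out the lowest H2-K1 library of each group, so they give no test.

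**Figure D2:**
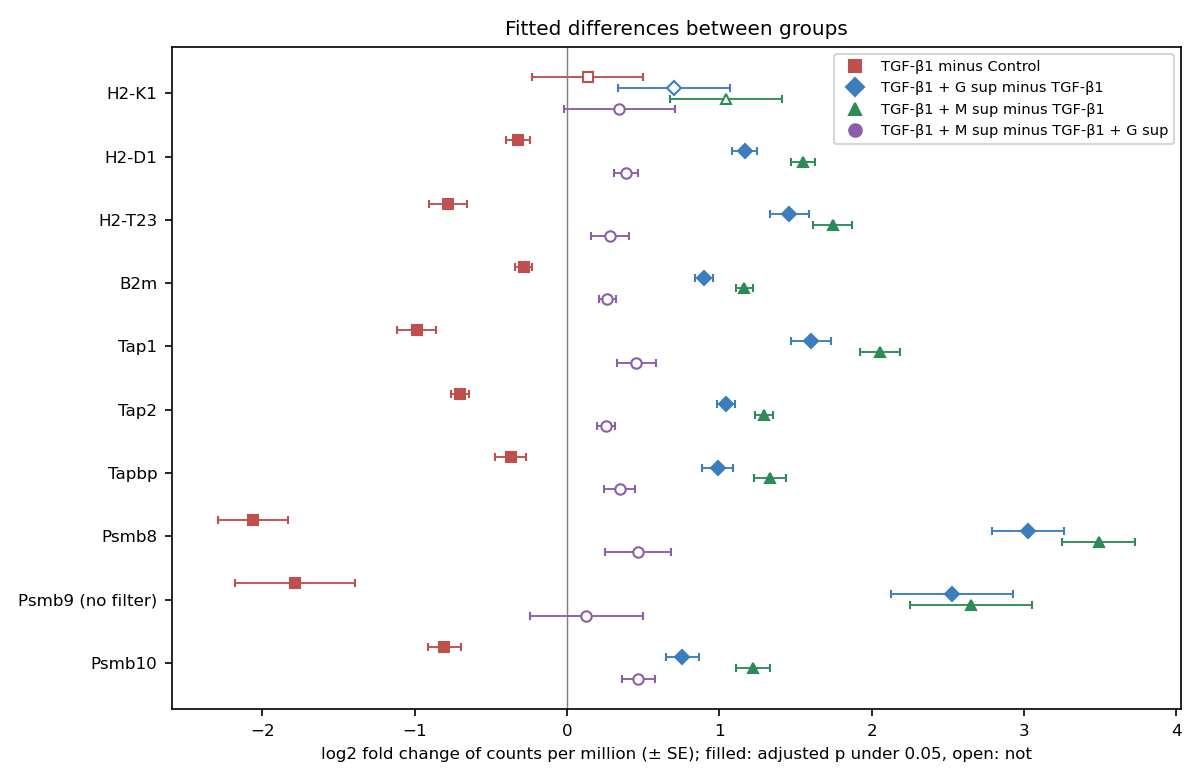
Fitted log2 fold change of each member with its standard error in 4 comparisons. Filled symbols have an adjusted p under 0.05, and Psmb9 comes from the fit without a filter. TGF-β1 symbols lie left of 0 for all but H2-K1, and both supernatant symbols lie right of 0, with Psmb8 at 3.49 and 3.03.

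The supernatants were then compared with each other. No member passed an adjusted p of 0.05 by edgeR, where 0.0999% of all genes were higher with M-MDSC sup. At an unadjusted p under 0.05, 7 of the 9 were higher with M-MDSC sup, as were 3.56% of all genes. DESeq2 called 4 higher, where it called 0.643% of all genes, namely H2-D1 (adjusted p = 0.00279), B2m (0.0111), Psmb10 (0.0180) and Tap2 (0.0202). All 9 log2 fold changes were above 0, with a median of 0.35 against 0.00007 over all genes tested. The libraries of M-MDSC sup stood above those of G-MDSC sup without overlap for 8 of the 9, against 5.97% of all genes. The sizes were small. They ran from 0.25 ± 0.06 (SE) for Tap2, or 1.19-fold, to 0.47 ± 0.11 for Psmb10 and 0.47 ± 0.21 for Psmb8, or 1.38-fold. The 95% intervals were 0.21 to 0.56 for H2-D1, 0.14 to 0.39 for B2m, 0.17 to 0.74 for Tap1 and -0.01 to 0.94 for Psmb8. For H2-D1 in this comparison, the adjusted p ranged from 0.00279 to 0.676 over the tools and settings tried.

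Against untreated cells, most members stood above Control with either supernatant. With M-MDSC sup 9 of 9 tested members were higher than Control, where 16.4% of all genes were higher, and with G-MDSC sup 7 of 9, where 16.4% were higher. By the study's rule 4 (3.45% of all genes) and 0 (3.32%) were. The median log2 fold change was 0.96 and 0.62. With M-MDSC sup the largest rises over Control were 2.69-fold for Psmb8, 2.34-fold for H2-D1, 2.26-fold for H2-K1 and 2.10-fold for Tap1. The call of H2-K1 was lost without Control replicate 1 (adjusted p = 0.0920) or 3 (0.0812) and without M-MDSC sup replicate 2 (0.0854) or 3 (0.0974, edgeR). That of Psmb10 (log2 fold change 0.42) was lost when only these groups were fitted (adjusted p = 0.0595) and in replicates 2 and 3 alone (0.23, adjusted p = 0.182, edgeR). With G-MDSC sup the largest were 1.95-fold for Psmb8 and 1.79-fold for H2-D1. The genes not called there were H2-K1 (log2 fold change 0.84, adjusted p = 0.107) and Psmb10 (-0.05, adjusted p = 0.774, edgeR, 95% interval -0.29 to 0.19). H2-K1 was called without G-MDSC sup replicate 1 (adjusted p = 0.0223) and with the replicate number as a block (0.0130, edgeR). For Psmb9 without the filter the log2 fold changes from Control were 0.87 (adjusted p = 0.171) and 0.74 (adjusted p = 0.258).

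As a summary of the 9 tested members, the mean of their standardised levels was -0.46 to -0.22 in the Control libraries, -1.43 to -1.19 with TGF-β1, 0.40 to 0.66 with G-MDSC sup and 1.01 to 1.15 with M-MDSC sup. The 4 groups did not overlap in this mean. The correlation of single members with it over the 12 libraries was 0.72 for H2-K1 and 0.89 for Psmb10, and between 0.97 and 0.99 for the other 7. These libraries form 4 groups, so the correlations mostly describe differences between groups. Each member also enters the mean, so a part of its correlation is built in.

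Each immunoproteasome subunit replaces a constitutive one, Psmb8 replacing Psmb5, Psmb9 Psmb6 and Psmb10 Psmb7, and their ratio per length was taken within each library. Psmb8 stood at 1.33 ± 0.10% (SD, n = 3) of Psmb5 in Control, 0.262 ± 0.065% with TGF-β1, 2.17 ± 0.09% with G-MDSC sup and 2.87 ± 0.67% with M-MDSC sup. Psmb9 stood at 0.342 ± 0.138%, 0.103 ± 0.047%, 0.568 ± 0.0998% and 0.613 ± 0.0400% of Psmb6 in the same order. Psmb10 stood at 10.2 ± 1.21%, 5.54 ± 0.09%, 8.79 ± 0.27% and 11.9 ± 1.27% of Psmb7. The RNA of the constitutive subunits thus exceeded that of their replacements in every library. For all 3 pairs TGF-β1 lay below Control and below either supernatant without overlap. The two-sided exact permutation test then gives p = 0.1, the smallest it can give for 3 against 3, and 0.171 after Benjamini-Hochberg adjustment over the 24 ratio comparisons. The ratio of summed H2-K1 and H2-D1 to B2m was 10.1 ± 1.29% in Control, 11.6 ± 1.999% with TGF-β1, 11.9 ± 3.10% with G-MDSC sup and 12.6 ± 1.86% with M-MDSC sup. Its groups overlapped in all 6 comparisons (exact permutation p of 0.2 to 1.0).

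**Figure D3:**
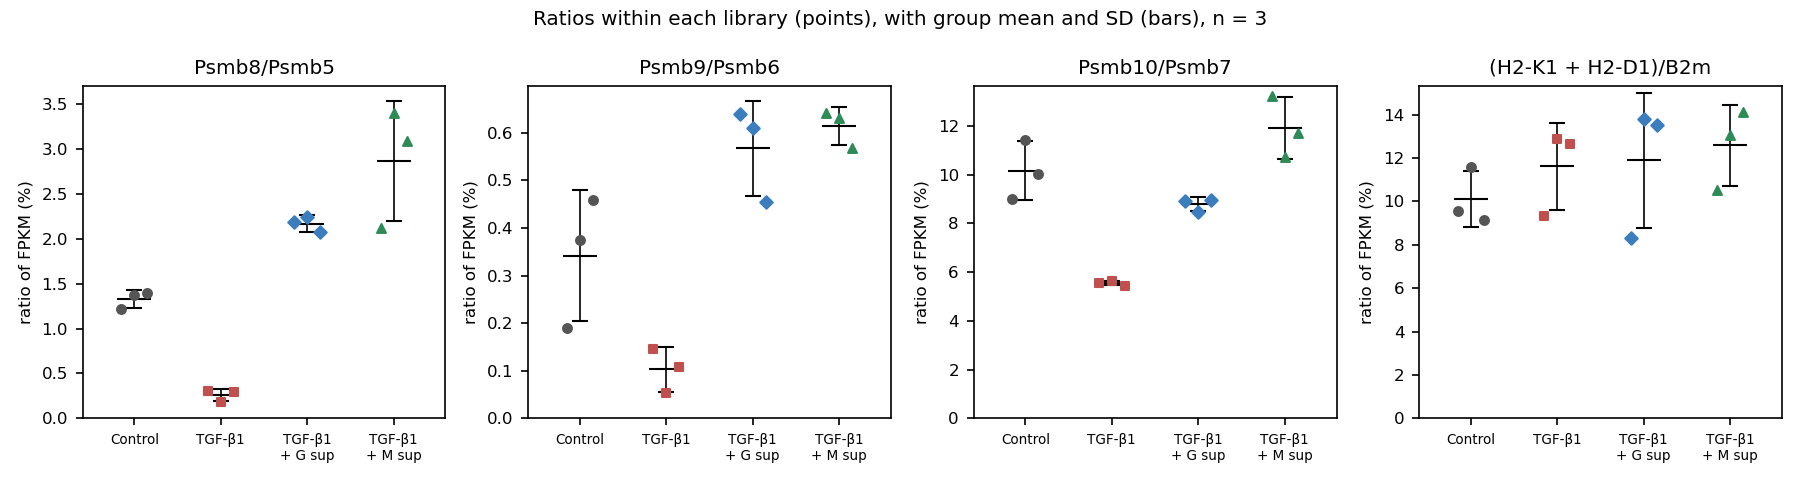
Ratios of FPKM within each library in percent, on axes that start at 0, with group mean ± SD of 3 libraries. The immunoproteasome ratios are lowest with TGF-β1 (0.262%, 0.103% and 5.54%), while the ratio of classical heavy chains to B2m stays between 8.31% and 14.1% in all libraries.

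Over TGF-β1, the constitutive proteasome changed little. Of 14 constitutive 20S subunits tested, 0 were called with either supernatant by edgeR (2 at an unadjusted p under 0.05 for each), and the median log2 fold change was 0.08 for both. Against Control, 5 were higher with M-MDSC sup and 7 with G-MDSC sup, with medians of 0.13 and 0.12, where 16.4% of all genes were higher in each. Psmb5, Psmb6 and Psmb7 had log2 fold changes of 0.09, 0.10 and 0.12 with M-MDSC sup. The proteasome activator genes split. Psme1 and Psme2, which encode the interferon-inducible PA28 cap, rose by 0.78 ± 0.10 and 0.96 ± 0.10 on the log2 scale with M-MDSC sup and by 0.55 ± 0.10 and 0.87 ± 0.10 with G-MDSC sup. With TGF-β1 against Control they had log2 fold changes of -0.56 and -0.74. The other 8 of the 10 activator and assembly genes were not called with either supernatant. Over all genes tested, 2.83% were higher with M-MDSC sup and 3.1% with G-MDSC sup than with TGF-β1 alone.

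Of the 11 genes for peptide loading and trimming, 2 were higher with M-MDSC sup (2.83% of all genes tested) and 1 with G-MDSC sup (3.1%). Erap1, the aminopeptidase that trims class I peptides, had 2.36 ± 0.20 FPKM (SD, n = 3) in Control, 1.75 ± 0.09 with TGF-β1, 3.33 ± 0.18 with G-MDSC sup and 3.73 ± 0.24 with M-MDSC sup, and its log2 fold changes over TGF-β1 were 1.07 ± 0.08 (SE, M-MDSC sup) and 0.91 ± 0.08 (G-MDSC sup). Tapbpl, a relative of tapasin that edits peptides, rose by 0.40 ± 0.07 with M-MDSC sup and had 0.13 ± 0.07 with G-MDSC sup (adjusted p = 0.394, edgeR). The general chaperones Calr, Canx and Pdia3 had values between -0.04 and 0.03 with either.

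Of 16 other class I heavy chains, 7 were tested, and 5 were higher with each supernatant, where 2.83% (M-MDSC sup) and 3.1% (G-MDSC sup) of all genes tested were higher. They were H2-Q4, H2-Q6, H2-Q1, H2-T22 and H2-T10, with log2 fold changes of 2.34 ± 0.26, 2.49 ± 0.43, 1.56 ± 0.19, 1.65 ± 0.12 and 1.22 ± 0.28 (SE) with M-MDSC sup and of 2.12 ± 0.25, 1.72 ± 0.42, 1.29 ± 0.19, 1.41 ± 0.12 and 1.20 ± 0.28 with G-MDSC sup. H2-Q6 passed the filter on low values through the supernatant groups only, having at most 0.724 FPKM without supernatant. With TGF-β1 alone 4 were lower, where 17.9% of all genes were, namely H2-Q6 (-1.52), H2-Q4 (-1.30), H2-T10 (-1.25) and H2-T22 (-0.89). H2-M3, a non-classical chain that presents formylated peptides, went the other way and rose by 0.67 ± 0.08. These chains are close relatives, and how the counting shared reads between them is not given in the sources used here. H2-Q2 had 0 counts in 7 of the 12 libraries and 260 to 718 counts in the other 5, spread over all groups.

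Of 15 transcription factors of the class I promoters, 14 were tested. Higher with both supernatants were 3 of them, Irf9, Stat2 and Nlrc5, where 2.83% (M-MDSC sup) and 3.1% (G-MDSC sup) of all genes tested were higher. Irf9 and Stat2, which act together in type I interferon signalling, had log2 fold changes over TGF-β1 of 2.56 ± 0.09 and 2.39 ± 0.09 (SE) with M-MDSC sup and 2.17 ± 0.09 and 2.03 ± 0.09 with G-MDSC sup. Nlrc5, the class I transactivator, had 1.05 ± 0.09 FPKM in Control, 0.530 ± 0.141 with TGF-β1, 1.07 ± 0.11 with G-MDSC sup and 1.25 ± 0.03 with M-MDSC sup, a log2 fold change of 1.21 ± 0.17 and 0.99 ± 0.17 over TGF-β1. Irf1 was different. It fell by 1.20 ± 0.22 with TGF-β1 and stayed called lower than Control with either supernatant (-0.61 and -0.82), with log2 fold changes over TGF-β1 of 0.59 (adjusted p = 0.186) and 0.38 (adjusted p = 0.430, edgeR). NF-κB, NF-Y and Creb1 genes were not called with either supernatant, and neither were Rfx5, Rfxank or Rfxap.

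Of the 15 genes of interferons and their receptors, 7 had 0 counts in all libraries, among them Ifnb1 and Ifng. The 4 receptor genes Ifnar1, Ifnar2, Ifngr1 and Ifngr2 were tested, and 0 were called with either supernatant (edgeR; 1 at an unadjusted p under 0.05 for each). Any interferon protein carried over in a supernatant would not be seen in these counts.

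**Figure D4:**
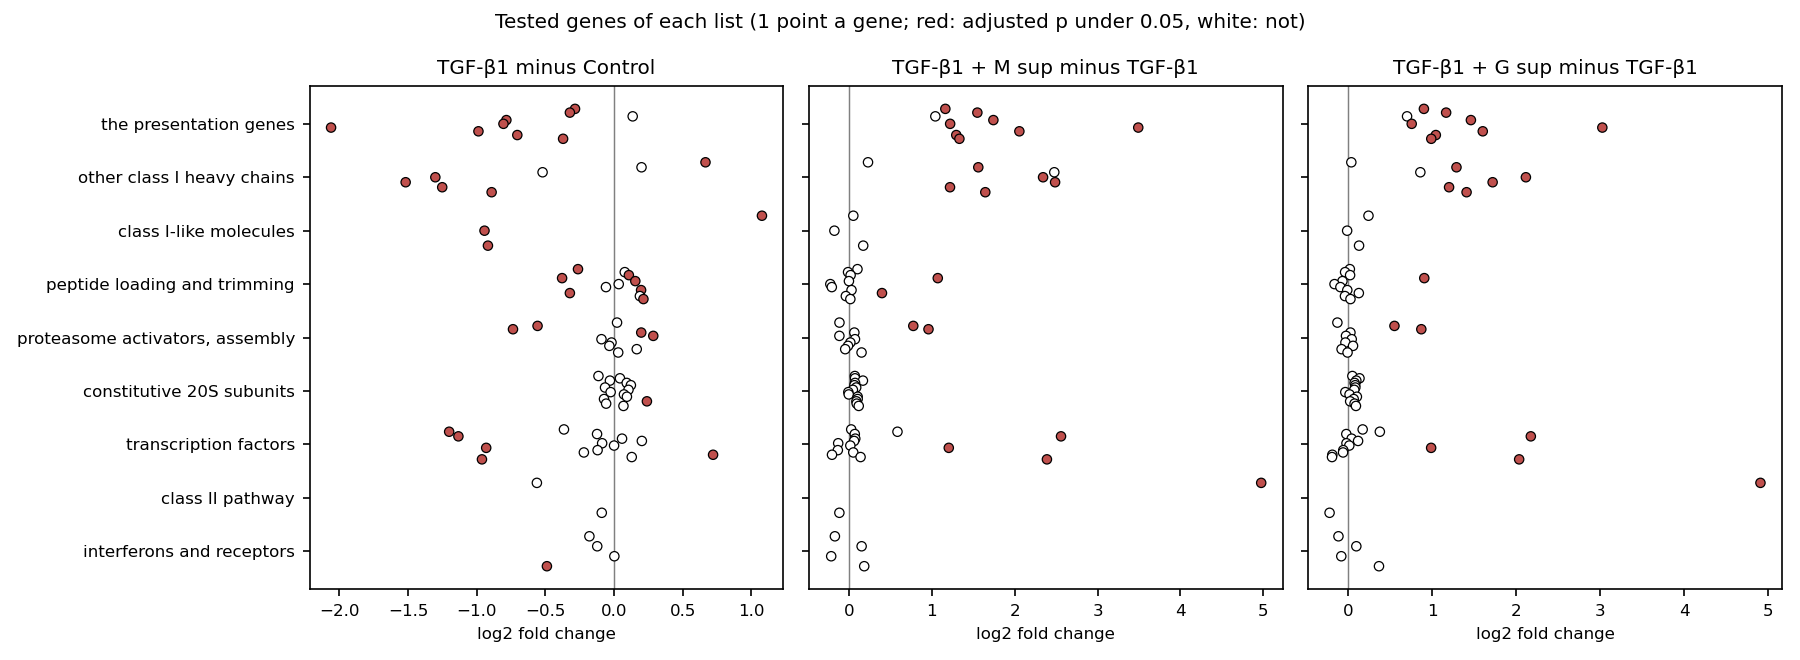
Log2 fold change of every tested gene of the presentation genes and 8 related lists in 3 comparisons, 1 point a gene, red where the adjusted p is under 0.05. With either supernatant, the presentation genes lie to the right, as do the red points of 5 of the 7 other heavy chains and of 3 transcription factors. The 14 constitutive 20S subunits lie between -0.04 and 0.17.

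The genes whose profile over the 12 libraries was most like the members' mean were sought among all tested genes that are no members. The 10 nearest were Nmi (Pearson r = 0.993), Phf11d (0.992), Irf7 (0.991), Igtp (0.989), Irf9 (0.989), Dhx58 (0.987), Tdrd7 (0.987), Oas1b (0.987), Ifi35 (0.987) and Isg15 (0.987). Phf11d had 2.90 ± 0.60 FPKM (SD, n = 3) in Control, 0.354 ± 0.074 with TGF-β1, 8.96 ± 0.23 with G-MDSC sup and 15.6 ± 1.17 with M-MDSC sup. Irf7 had 3.52 ± 0.50, 0.961 ± 0.217, 13.7 ± 0.66 and 22.8 ± 0.47 FPKM in the same order. Over TGF-β1 all 10 had log2 fold changes of 1.46 to 5.43 with M-MDSC sup and of 1.21 to 4.63 with G-MDSC sup. Isg15 alone among them was called higher with M-MDSC sup than with G-MDSC sup (0.70, adjusted p = 0.0460, edgeR).

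The members were set beside the transcripts of other organs in each library. Their summed level was 843, 908 and 914 FPKM in replicates 1 to 3 with M-MDSC sup, of which B2m alone gave 704, 749 and 748 FPKM. Among these libraries, the hepatocyte markers were high in replicate 3 only. Without that replicate the log2 fold changes over TGF-β1 were 3.46 for Psmb8, 2.08 for Tap1, 1.53 for H2-D1 and 1.15 for B2m, and 8 of the 9 were still called. The kidney markers were present in all 6 supernatant libraries, so their part cannot be told apart from that of the supernatant. They were lowest in M-MDSC sup replicates 1 and 2, at 19.5 and 18.8 FPKM, against at most 0.593 FPKM without supernatant. The 14 myeloid markers summed to 6.20 to 7.23 FPKM in Control, 2.36 to 3.33 with TGF-β1, 6.96 to 8.92 with G-MDSC sup and 4.58 to 7.94 with M-MDSC sup, so that their sum was also lowest with TGF-β1. In Control it was mostly Cd68, Ly6g and Ly6c2, with Ptprc and Itgam at 0. Ly6g and Ly6c2 fell from 1.83 and 1.71 FPKM in Control to 0.0681 and 0.0450 FPKM with TGF-β1 and had at most 0.211 FPKM on average with either supernatant. Lyz2, the lysozyme gene of myeloid cells, had 0.0573 ± 0.0502 FPKM (SD, n = 3) with TGF-β1 but 1.87 ± 0.28 with G-MDSC sup and 1.54 ± 0.83 with M-MDSC sup, and it passed the filter through these groups only. S100a9, a neutrophil gene, had 0 counts in the 6 libraries without supernatant and in replicates 1 and 2 with G-MDSC sup, 160 counts in replicate 3 with G-MDSC sup, and 43, 12 and 23 counts with M-MDSC sup. The part of the organ and myeloid transcripts in the members' levels was not tested.

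**Figure D5:**
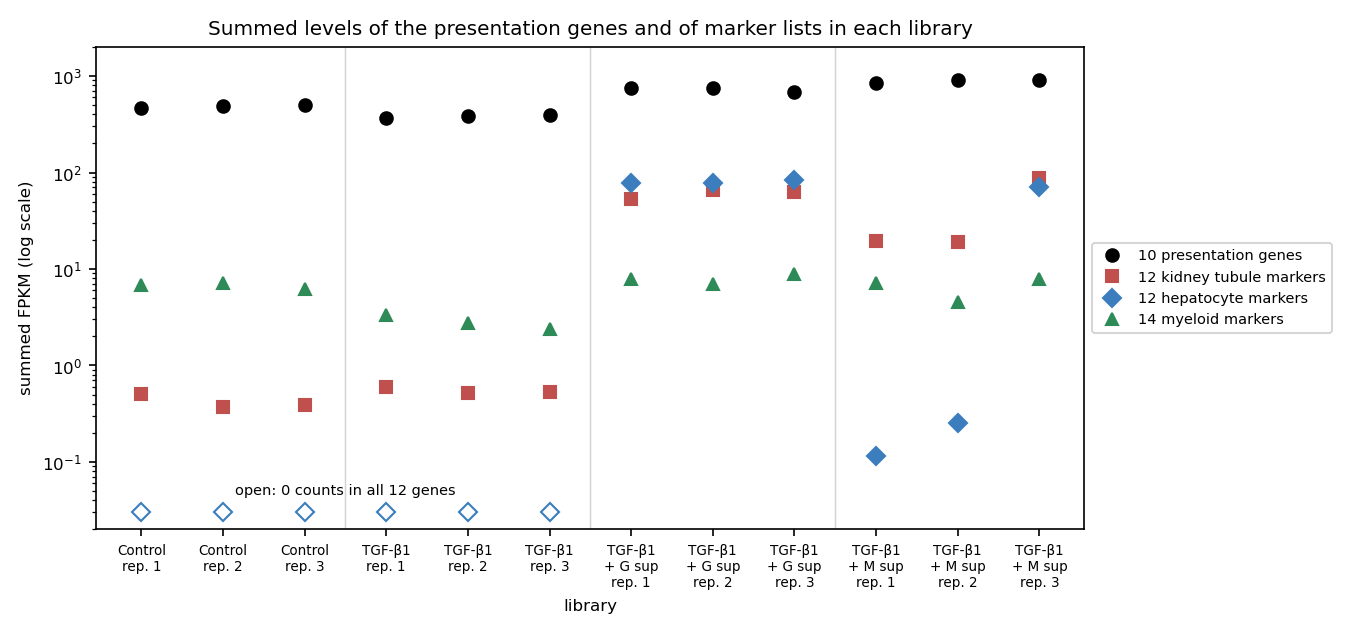
Summed FPKM of the 10 presentation genes and of 3 marker lists in each of the 12 libraries, on a log axis. Open symbols at the lower edge stand for 0 counts. The sum of the presentation genes, most of it B2m, is lowest in the TGF-β1 libraries (365 to 395 FPKM) and highest with M-MDSC sup (843 to 914 FPKM). The hepatocyte markers are at 0.116 and 0.254 FPKM in the first 2 M-MDSC sup libraries.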

How the data were processed

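Poly(A) RNA of 12 libraries, 3 a group, was sequenced as paired ends of 150 bases from strand-marked (dUTP) libraries. Per the submitters' processing notes, the authors trimmed reads with cutadapt 1.9, aligned them with HISAT2 2.0.4 and assembled transcripts with StringTie 1.3.4d. The paper's methods give GRCm38 as the genome, name HISAT2 and StringTie without versions, and name Fastp for read quality. The deposited table gives counts per gene and FPKM for 55401 genes. The tool that counted and its strand setting are not given in the sources used here. The authors' FPKM is written as 0.0001 for a count of 0, and 44.3% of counts from 1 to 12 are multiples of 4. Columns of the authors' comparisons (fold changes, p-values) were not used.

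Here, genes with at least 1 FPKM in at least 3 libraries (12016) were tested in 1 fit of the 4 groups with edgeR 4.0.16 in R 4.3.3 (TMM scaling, quasi-likelihood F test, two-sided, Benjamini-Hochberg over all genes tested) and called at an adjusted p under 0.05. Standard errors are the log2 fold change over the root of F, with 95% intervals from the t distribution. Ratios were compared by two-sided exact permutation tests. Within groups, gene counts of library pairs varied 45.0 to 62.7 times more than counting error alone gives, so depth does not limit the well expressed members. The fits were tested on simulated data. Alternatives were DESeq2 1.42.0, limma 3.58.1 on log2(FPKM + 1) or log2(FPKM + 0.1), median-ratio scaling, no filter, counts divided by 4, a replicate block, only the groups compared, the study's call rule (fold change over 2 or under 0.5, p under 0.05) and leaving out each library. Replicates 2 and 3 alone were added after the data were seen. All 10 members are named. Of other lists, genes called with a supernatant are named, up to 4 by size, plus Nlrc5, Irf1, Psme1, Psme2, Erap1, Psmb5, Psmb6 and Psmb7. Further genes in the text (H2-T10, H2-M3, H2-Q2, A930015D03Rik, Zbtb22, the chaperones and others) were chosen after their values were seen. 1 regulator is not reported here. Members and lists were chosen with earlier results of these data known. Promoters and gene models are from RefSeq and GRCm38. Tables were handled with Python 3.11.15, pandas 2.3.3 and scipy 1.17.1.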

Additional observations from a re-analysis of the deposited data

How the results depend on the processing

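The members' single log2 fold changes were compared under all alternatives except the study's call rule. Of them, 1108 kept direction and side of the threshold, 10 gained a call, 15 lost one and 1 turned its sign. The last was Psmb10 with G-MDSC sup against Control (0.061 without Control replicate 2). No called member changed direction under another scaling. Under the study's call rule the counts were 1 lower with TGF-β1, 5 higher with G-MDSC sup over TGF-β1, and 4 (M-MDSC sup) and 0 (G-MDSC sup) higher than Control, since many of the changes were under 2-fold. DESeq2 called 4 members higher with M-MDSC sup than with G-MDSC sup, where edgeR called 0, and the cause was not tested. The median log2 fold change over TGF-β1 was 1.45 (M-MDSC sup) and 1.11 (G-MDSC sup) without a filter, where Psmb9 enters. With limma on log2(FPKM + 1), which understates low genes, the medians were 1.25 and 0.96 over TGF-β1 and 0.83 and 0.54 over Control. In replicates 2 and 3 alone, calls were lost for H2-D1 (adjusted p = 0.0863) and Tapbp (0.134) with TGF-β1, for Psmb10 with M-MDSC sup over Control, and for Tap1 (0.0574) and Psmb8 (0.0534, edgeR) with G-MDSC sup over Control. There the median with M-MDSC sup over TGF-β1 was 1.25. Leaving out each library, the medians ran from 1.31 to 1.49 (M-MDSC sup) and from 1.03 to 1.15 (G-MDSC sup) over TGF-β1, highest without TGF-β1 replicate 2, and from 0.31 to 0.45 between the supernatants. The difference of log2 Psmb9/Psmb6 between the supernatants ran from -0.028 to 0.22. That of summed H2-K1 and H2-D1 to B2m ran from -0.031 to 0.24 (M-MDSC sup) and -0.14 to 0.25 (G-MDSC sup) over TGF-β1, where log2(FPKM + 1) gave -0.00419, and from -0.13 to 0.24 between the supernatants. Over all genes tested, libraries with the same replicate number did not deviate together (mean correlation -0.0038 over 18 pairs, 0 over 0.1). Such a correlation cannot show whether single genes did, and H2-K1 was lowest in replicate 1 of each group. With the replicate number as a block, 9 members were higher with M-MDSC sup over TGF-β1, H2-K1 being added (adjusted p = 0.0155, edgeR), and 8 with G-MDSC sup over Control. Only H2-K1 gained calls with that block.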

Other observations

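Of 5 class I-like genes, 3 were tested, and 0 were called with either supernatant over TGF-β1 (edgeR; 0 at an unadjusted p under 0.05). Fcgrt, the neonatal Fc receptor that also pairs with B2m, had 12.6 ± 0.65 FPKM (SD, n = 3) in Control, 6.29 ± 0.79 with TGF-β1, 6.34 ± 0.91 with G-MDSC sup and 5.66 ± 1.05 with M-MDSC sup. Mr1, which presents vitamin B metabolites, fell by 0.92 ± 0.16 (SE) on the log2 scale with TGF-β1. Cd1d1, which presents lipids, rose by 1.08 ± 0.16. Both stayed on that side of Control with each supernatant. Hfe, an iron-regulating relative, was below the filter. Fitted without it, Hfe had log2 fold changes of -0.78 ± 0.27 (SE) with TGF-β1 (adjusted p = 0.0855), 0.65 ± 0.27 with M-MDSC sup over TGF-β1 (adjusted p = 0.404) and 0.59 ± 0.27 with G-MDSC sup (adjusted p = 0.444, edgeR), with unadjusted p of 0.0143, 0.0355 and 0.0495.

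Of 10 class II pathway genes, 2 were tested. Cd74, the invariant chain, had 0.0550 ± 0.0320 FPKM in Control and 0.0347 ± 0.0229 with TGF-β1, and 1.15 ± 0.10 with G-MDSC sup and 1.21 ± 0.22 with M-MDSC sup. H2-DMa had log2 fold changes of -0.11 and -0.22 over TGF-β1 and was not called. Cd74 passed the filter on low values through the supernatant groups. The class II chains H2-Aa and H2-Eb1 stayed below the filter. Both had 0 counts in all 6 libraries without supernatant. H2-Aa had 20, 19 and 36 counts with G-MDSC sup and 46, 22 and 83 with M-MDSC sup, and H2-Eb1 had 39, 15 and 29 counts and 41, 8 and 45 counts. H2-Ab1 had at most 10 counts without supernatant and 30 to 60 with it. H2-Q10, a class I gene known from liver, had 0.346 to 0.402 FPKM with G-MDSC sup and 0.414 FPKM in M-MDSC sup replicate 3, the libraries with hepatocyte transcripts, and at most 0.126 FPKM in the others.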
